A study of Zea mays with 12 samples.

Results

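In the m6A-seq peak lists of 2 maize inbred lines, 6509 of 64785 peaks had their summit within 100 bp of the 3′ end of a gene. These end peaks were found by a rule of position alone. The summit, the base of highest enrichment in a peak, had to lie in exactly 1 gene span of the line. It also had to lie in the last 10% of that span, read along the strand, and at most 100 bp from its end. They were compared with 24688 inner peaks, whose summits lay in the last 10% of a span as well, but 101 to 400 bp from the end. No measured enrichment, width or RNA level entered the rule, though the lists hold only peaks that had been called.

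N6-methyladenosine (m6A) is the most common internal mark of plant messenger RNA. In Arabidopsis it is written by a methyltransferase complex that includes MTA and MTB, read by proteins with a YTH domain, and enriched near stop codons and in 3′ untranslated regions. The end of a gene model marks where the transcript is cleaved and polyadenylated, so that end peaks lie next to the poly(A) tail as far as the model is right. In m6A-seq, fragments of RNA are pulled down with an antibody to the mark and sequenced. In polysome profiling, the RNA bound to several ribosomes is recovered and sequenced.

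The plants were B73 and Mo17 seedlings, 14 days old, kept in 16 h light (28 °C) and 8 h darkness (25 °C); the labels spell the tissue as seedings. Each line was represented by 2 m6A-seq, 2 RNA-seq and 2 polysome profiling samples, 12 in all, and the lines differ by genotype alone in the labels. Whether plants were pooled is not stated. The samples are bulk tissue, so fewer cells of a type and less RNA per cell cannot be told apart. No label says that replicates are separate plants, so the spread between them may be technical. The files pair gene identifiers neither with names nor between the lines, and 0 of the 1841 B73 and 0 of the 512 Mo17 genes described here matched the reference table. Tissue markers could therefore not be checked, and each line was analysed alone. The peak lists held 14846 to 16379 peaks in Mo17 and 16161 to 17399 in B73. The depth behind the peaks and the FPKM is unknown.

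End peaks were common in B73 and less so in Mo17. The B73 lists held 2510 and 2526 of them, which was 14.4% and 15.6% of all peaks and 25.7% and 26.0% of the summits in the last 10% of a span. The Mo17 lists held 755 and 718, which was 4.61% and 4.84% of all peaks and 9.83% and 9.85% of those summits. The share of last-10% summits was 25.9% ± 0.191 in B73 and 9.84% ± 0.0101 in Mo17 (SD, n = 2 lists each), a difference of 16.0 percentage points that was larger than the spread between replicates. With 2 lists a line the exact two-sided permutation test cannot go below the 0.333 it gave. The gene ends come from a separate annotation in each line, so the line and the annotation cannot be told apart.

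The summits thinned out sharply in the last bases of the gene. In B73 only 54 and 60 summits lay within 20 bp of the end, against 845 and 865 at 81 to 100 bp. The density reached 422.5 and 432.5 summits per 10 bp in that last bin, close to the 376.4 and 381 per 10 bp of the stretch from 101 to 200 bp. In Mo17 the summits within 20 bp numbered 29 and 33, and those at 81 to 100 bp 327 and 323. There the density still rose beyond the limit, from 163.5 and 161.5 per 10 bp at 81 to 100 bp to 255.3 and 240.8 at 101 to 200 bp. Among end peaks the median distance was 72 and 71 bp in the B73 lists, and it was 76 and 78 bp for Mo17. Summits outside all spans but 1 to 100 bp past an annotated end were fewer than end peaks, at 188 and 168 in B73 and 233 and 217 in Mo17.

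**Figure D1:**
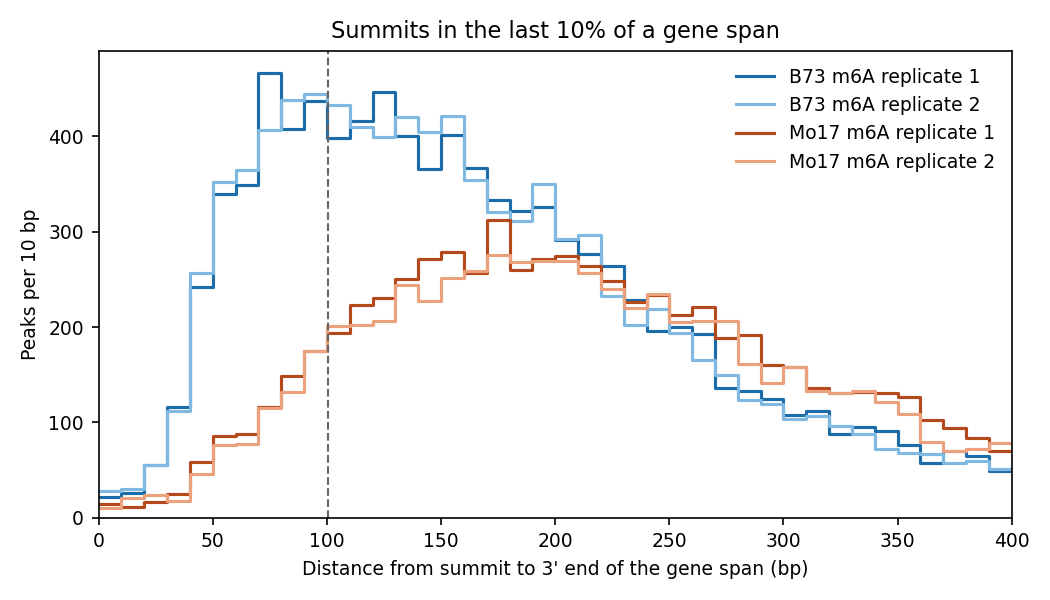
Number of peaks per 10 bp (y axis) by distance of the summit from the 3′ end of the gene span in bp (x axis), for summits in the last 10% of a span, 1 line per m6A list; the dashed line marks 100 bp. The B73 lists rise steeply between 20 and 80 bp and the Mo17 lists peak further inside the gene, and the replicates of each line run together.

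At the threshold itself few peaks were held on each side, and the medians were uneven. The B73 lists held 48 and 38 summits at exactly 100 bp and 45 and 53 at 101 bp, with median folds of 8.82 and 9.25 inside and 8.15 and 7.12 outside. The Mo17 lists held 14 and 24 at 100 bp and 21 and 15 at 101 bp, with median folds of 6.90 and 6.94 inside and 7.92 and 7.55 outside. The fold was thus higher inside the limit in both B73 lists and lower inside it in both Mo17 lists. These medians rest on 14 to 53 peaks each, and the difference was not tested. Over all end and inner peaks, end peaks had the higher median fold in both Mo17 lists too. Median widths were 111.5 and 144.5 bp inside and 119 and 114 bp outside for B73, and 169.5 and 145 bp inside and 114 and 102 bp outside for Mo17.

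End peaks were found on all 10 chromosomes and on both strands. Among end and inner peaks together, the end peaks made up 25.9% to 29.9% on the chromosomes of B73 and 9.39% to 12.9% on those of Mo17. The plus strand held 50.9% and 50.7% of them in B73 and 47.2% and 47.6% in Mo17, beside 51.0% to 51.6% of the inner peaks over the 4 lists. Every end peak lay in a gene model with a Zm identifier. No gene had more than 1 end peak in a list. For 79.4% and 83.1% of the B73 end peaks and 77.4% and 81.9% of the Mo17 end peaks, it was the only peak of its gene in that list. Inner peaks were the only peak of their gene in 79.0% and 81.8% of cases in B73 and in 81.4% and 85.7% in Mo17.

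Enrichment was slightly higher in end peaks than in inner peaks. Fold here is the authors' fold enrichment of each peak, whose control the sources used here do not give, and it is compared within a list only. In B73 replicate 1 the median fold was 7.95 for end peaks and 7.55 for inner peaks. In replicate 2 it was 8.50 and 7.95. In Mo17 the medians were 7.90 and 7.49 in replicate 1 and 8.12 and 7.73 in replicate 2. The difference was 0.477 ± 0.104 in B73 and 0.395 ± 0.0152 in Mo17 (SD, n = 2). In each line it exceeded the replicate spread. End peaks were higher in 4 of 4 lists, for which the exact two-sided sign-flip permutation test over the lists gave p = 0.125, the smallest that 4 pairs allow. The lists of a line share most of their end peaks, so the 4 values are not independent. In B73 replicate 1 the quartiles were 5.91 and 11.3 for end peaks and 5.36 and 10.8 for inner peaks, so that single peaks of both kinds overlapped widely.

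The difference in fold depended on which peaks were compared. It was 0.0930 over the 4 lists with the limit at 50 bp and 0.115 with peaks of at least 5-fold alone. With gene spans of at least 4000 bp alone it was 0.799, against 0.436 with all peaks. At the limit of 50 bp, end peaks were higher in 3 of 4 lists (exact two-sided sign-flip permutation p = 0.25). An inner peak needs a span of over 1000 bp, and one at 400 bp a span of about 4000 bp, so the rule favours long genes among inner peaks. The median span was 4789.5 and 4767 bp for end peaks and 5597 and 5570 bp for inner peaks in B73. In Mo17 it was 5372 and 5574 bp against 5653 and 5652 bp.

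Within the last 100 bp the fold was lowest at the very end. For the 54 and 60 B73 summits within 20 bp the median fold was 6.54 and 7.36, and at 21 to 40 bp it was 7.80 and 8.73. It was 8.12 and 8.52 at 81 to 100 bp and then fell inward to 7.14 and 7.83 at 301 to 400 bp. In Mo17 the medians were 7.09 and 7.22 within 20 bp, 8.07 and 8.29 at 81 to 100 bp and 7.21 and 7.59 at 301 to 400 bp. All 4 lists thus had a lower median within 20 bp than at 81 to 100 bp.

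**Figure D2:**
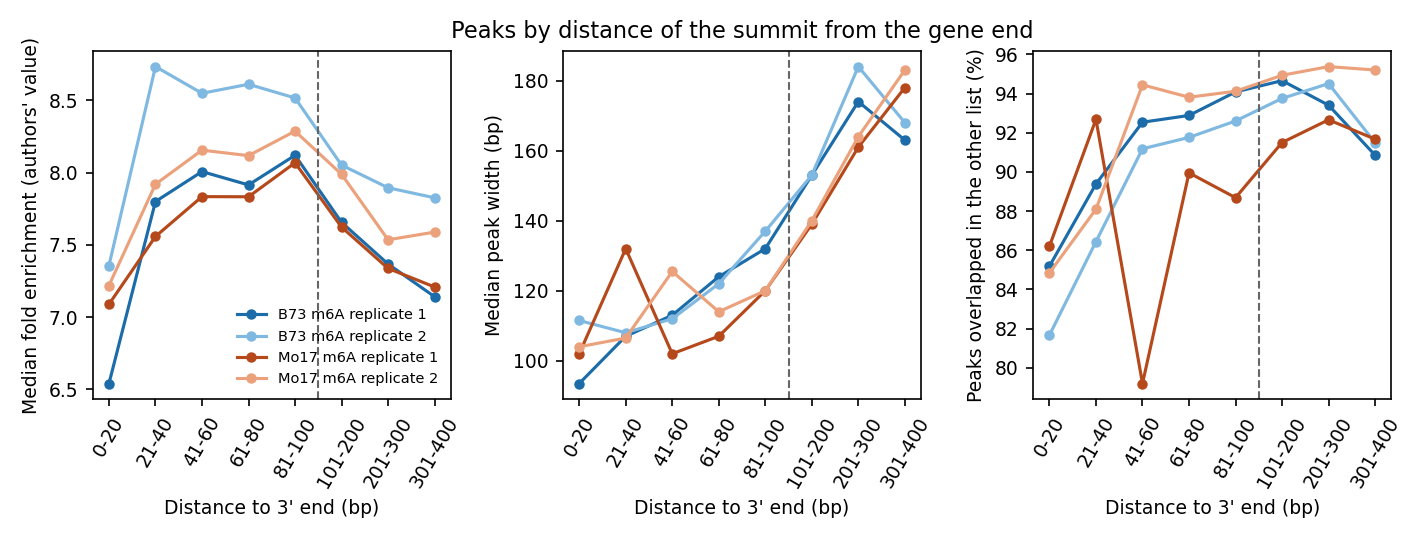
Median fold enrichment, median peak width in bp and percent of peaks overlapped by a peak of the other list of the line (y axes), by distance of the summit from the gene end in bp (x axes), 1 line per m6A list; the dashed line separates end from inner peaks, the y axes do not start at 0, and the bins are 20 bp wide up to 100 bp and 100 bp wide beyond. Fold is lowest within 20 bp in each of the 4 lists, and median width is 93.5 to 111.5 bp there and 161 to 184 bp at 201 to 300 bp.

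The fold of end peaks was lowest in the genes with the most RNA, as was that of inner peaks. The lists hold only called peaks, so peaks of low fold in genes with little RNA may be missing from them. This was not tested. Genes with either kind of peak were split into quartiles of mean log2(FPKM + 1) in total RNA, list by list. In B73 the median fold of end peaks was 9.09 and 9.49 in the lowest quartile, and 5.82 and 6.32 in the highest. In the highest quartile the inner peaks had 5.07 and 5.39. In Mo17 the end peaks had 8.54 and 9.17 in the lowest quartile and 5.65 and 5.77 in the highest, where the inner peaks had 5.26 and 5.49. End peaks had the higher median in all 4 quartiles of both B73 lists and of Mo17 replicate 2. In Mo17 replicate 1 the lowest quartile went the other way, with 8.54 for end and 8.84 for inner peaks. Averaged over the quartiles, the difference in fold was 0.589 in B73 and 0.263 in Mo17, where it was 0.477 and 0.395 without them. With peaks of a −log10 q of at least 10 alone it was 0.310 in B73 and 0.627 in Mo17, so the size in each line depended on the peaks and weights used.

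**Figure D3:**
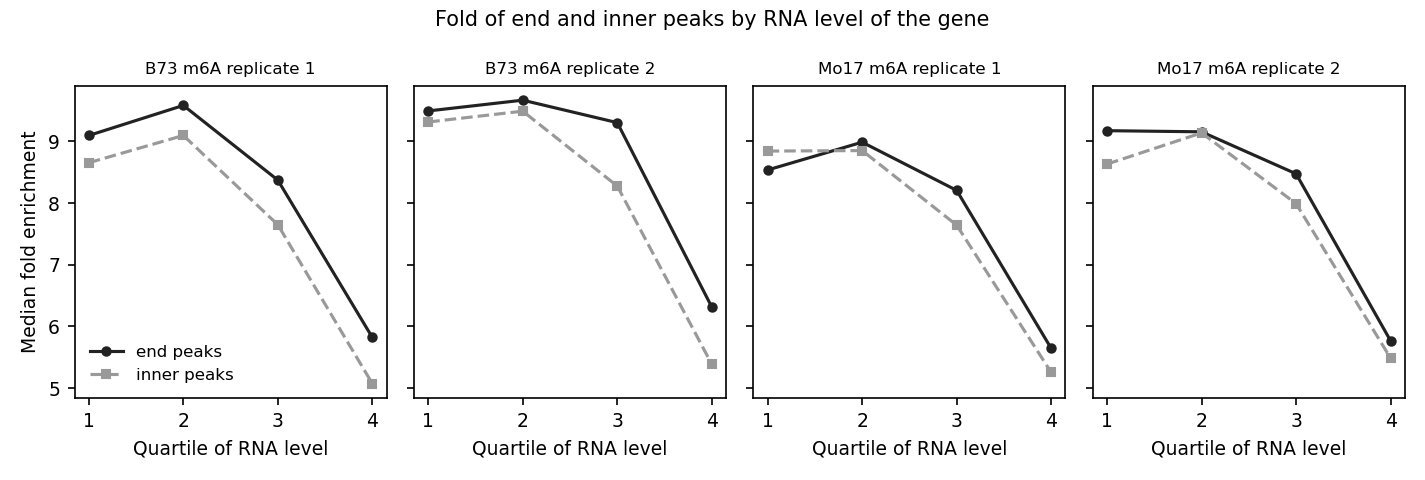
Median fold enrichment (y axis, not from 0) of end peaks (solid) and inner peaks (dashed) by quartile of RNA level of the gene (x axis, 1 lowest), 1 panel per m6A list. Both kinds fall from the second to the fourth quartile, where end peaks are at 5.65 to 6.32 and inner peaks at 5.07 to 5.49.

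The peak caller's −log10 q, which grows with the amount of signal as well as with the fold, did not follow the fold. Its median was 15.7 for both kinds in B73 replicate 1, and 17.5 for end and 16.9 for inner peaks in replicate 2. In Mo17 it was lower for end peaks, at 14.0 against 15.6 in replicate 1 and 13.2 against 14.4 in replicate 2.

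End peaks were narrower than inner peaks. Their median width was 123 and 122 bp in B73, against 160 and 163 bp for inner peaks. In Mo17 it was 115 and 118 bp against 153 and 157 bp. The difference was −39.0 bp ± 2.83 in B73 and −38.5 bp ± 0.707 in Mo17 (SD, n = 2), and end peaks were narrower in 4 of 4 lists (exact two-sided sign-flip permutation p = 0.125, the smallest possible). Over all alternatives the mean difference stayed between −41.2 and −35 bp. The rule places end peaks beside the gene end, which may itself set part of this difference, and the test cannot tell that part from the rest.

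The missing width lay on the side of the gene end. From the summit to the edge that faces the end, end peaks measured a median of 43 bp in both B73 lists and 41 and 40 bp in Mo17. Inner peaks measured 74 and 76 bp in B73 and 64 bp in both Mo17 lists on that side. On the other side the 2 kinds were alike, with medians of 73 and 72 bp for end and 69 and 70 bp for inner peaks in B73, and of 68 and 69 bp against 72 and 73 bp in Mo17. No test was run on these sides, since the rule places the end peaks beside the end.

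Most end peaks stopped at or before the annotated end. Only 16.1% and 16.2% of them ran past it in B73 and 16.8% and 15.9% in Mo17. Those that did reached beyond it by a median of 17 and 19 bp in the B73 lists and by 32 and 33.5 bp in the Mo17 lists, and at most by 302 bp. The outer edge lay within 10 bp of the annotated end, on either side, in 465 and 451 of the B73 end peaks (18.5% and 17.9%). In Mo17 it did so in 84 and 71 (11.1% and 9.89%). Inner peaks ran past the end in 2.20% and 2.45% of cases in B73 and in 0.422% and 0.570% in Mo17.

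Genes with end peaks had a close downstream neighbour somewhat more often. The next span began within 1000 bp of the end for 19.2% and 19.5% of the B73 end peaks and 17.4% and 17.2% of the inner peaks. In Mo17 the shares were 16.0% and 16.6% against 13.9% and 13.7%. Over all spans of at least 1000 bp they were 13.7% in B73 and 11.9% in Mo17. A neighbour on the opposite strand, whose end faces that of the gene, lay within 1000 bp for 13.2% and 13.5% of B73 end peaks, 12.4% and 12.04% of B73 inner peaks and 9.16% of all B73 spans of at least 1000 bp. For Mo17 the shares were 11.0% and 10.4% of end peaks, 9.60% and 9.66% of inner peaks and 7.27% of such spans. Where such a pair is close, reads of the neighbours cannot be told apart without strand, and the sources used here give no strand setting. These shares were not tested.

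Slightly fewer end peaks than inner peaks were found again in the other replicate. Of the B73 end peaks, 92.8% and 91.3% were overlapped by at least 1 bp by a peak of the other list, against 93.8% and 93.7% of the inner peaks. In Mo17 the shares were 87.3% and 93.3% for end and 92.0% and 95.2% for inner peaks. The difference was −1.72 percentage points ± 0.996 in B73 and −3.26 ± 2.01 in Mo17 (SD, n = 2), and it was negative in 4 of 4 lists (exact two-sided sign-flip permutation p = 0.125, the smallest possible). Both lists of a line share the same pair, so the 4 values are not independent. The mean difference of −2.49 points shrank to −0.719 with gene spans of at least 4000 bp, to −1.08 with peaks of at least 5-fold, to −1.54 with the limit at 150 bp and to −1.13 when a summit of the other list within 50 bp was asked for. It was −4.58 with the limit at 50 bp.

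Where an end peak was found again, its summit was nearly in place. Between the lists the median shift was 5 bp for both B73 lists and 6 and 5.5 bp for Mo17, and 79.8% to 82.7% of the summits moved by at most 20 bp. Of the overlapping peaks, 86.0% and 86.9% were end peaks in the other B73 list too, and 81.9% and 80.6% in the other Mo17 list. Most of the rest were inner peaks there, at 13.0% and 12.1% in B73 and 15.3% and 16.9% in Mo17. Few summits crossed the gene end, namely 10 and 20 in B73 and 13 and 10 in Mo17. End peaks with a partner had median folds of 8.28 and 8.93 in B73 and 8.38 and 8.45 in Mo17. Those without had 6.16 and 6.09 in B73 and 6.46 and 5.95 in Mo17. Inner peaks were much alike, with median shifts of 6 to 7 bp and 76.9% to 78.4% of summits within 20 bp. Their median folds were 7.76 and 8.29 with a partner and 5.66 and 5.85 without in B73. In Mo17 they were 7.75 and 7.93 with a partner and 5.81 and 5.71 without.

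At the level of genes, 3032 B73 genes and 933 Mo17 genes had an end peak in at least 1 list. It was present in both lists for 2004 B73 genes (66.1%) and 540 Mo17 genes (57.9%). In 783 B73 genes and 253 Mo17 genes, the gene had an end peak in one list and an inner peak in the other. For what follows, end genes are those with an end peak in both lists and no inner peak in either, 1841 in B73 and 512 in Mo17. Inner genes are the reverse, 5589 in B73 and 5130 in Mo17. Over the end genes the mean fold of the end peak ran from 1.76 to 28.4 in B73, with a median of 8.89, and from 2.31 to 22.7 in Mo17, with a median of 8.86. The folds of the replicates lay within a factor of 1.5 of each other in 73.7% of the B73 and 73.6% of the Mo17 end genes. As a description across genes, which are not independent replicates, the log2 folds of the replicates had a Pearson correlation of 0.693 over the 1841 B73 genes and of 0.654 over the 512 Mo17 genes.

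Among the called peaks, the strongest end peaks belonged to genes of modest RNA level. Among end genes that reached an FPKM of 1 in each RNA library, the highest mean fold in B73 was that of Zm00001d015260 (chromosome 5, 81788079 to 81795079, plus strand, B73 RefGen_v4). Its peak had folds of 22.8 and 29.9 and summits 67 and 70 bp from the end. Its RNA FPKM was 2.86 and 6.20. Zm00001d033023 (chromosome 1, 247444675 to 247447102, plus strand) had folds of 26.7 and 24.8, with summits 47 and 39 bp from the end and RNA FPKM of 2.90 and 3.23. Its peak ran past the annotated end in both lists, ending at 247447106 and 247447108. Zm00001d007058 (chromosome 2, 220982498 to 220987951, plus strand) had folds of 23.9 and 26.0, with summits at 70 and 65 bp. These 3 peaks were strong in both replicates and held their place to within 8 bp.

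Of the next of these genes in B73, Zm00001d002580 differed most between the replicates. Zm00001d025075 (chromosome 10, 102770463 to 102774619, minus strand) had folds of 23.7 and 25.8, with RNA FPKM of 2.56 and 5.54. Zm00001d002580 (chromosome 2, 15969358 to 15979838, minus strand) had folds of 31.1 and 17.3, far apart, while its peak kept a width of 469 and 471 bp. Zm00001d004118 (chromosome 2, 83750412 to 83790051, plus strand) had folds of 20.8 and 24.5, with a span of 39640 bp. Over the 6, mean RNA FPKM lay between 1.48 and 4.53, below the medians of all B73 end genes of 5.12 and 5.24.

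In Mo17, coordinates are as its files list them, with no build name. Zm00014a_019643 (chromosome 5, 60778541 to 60784775, minus strand) led with folds of 22.6 and 22.9, summits 56 and 55 bp from the end, and RNA FPKM of 6.92 and 6.07. Both lists placed this peak almost identically. Zm00014a_031403 (chromosome 2, 214329796 to 214342565, minus strand) had folds of 16.2 and 24.8. Zm00014a_042209 (chromosome 7, 81004856 to 81017849, plus strand) had folds of 24.7 and 14.3, with widths of 446 and 213 bp, the least even of the 6. Zm00014a_040722, Zm00014a_029749 and Zm00014a_008423 had mean folds of 19.4, 19.1 and 18.9. Over the 6, mean RNA FPKM lay between 1.51 and 6.50, below the median of all Mo17 end genes of 8.47 and 7.43.

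**Figure D4:**
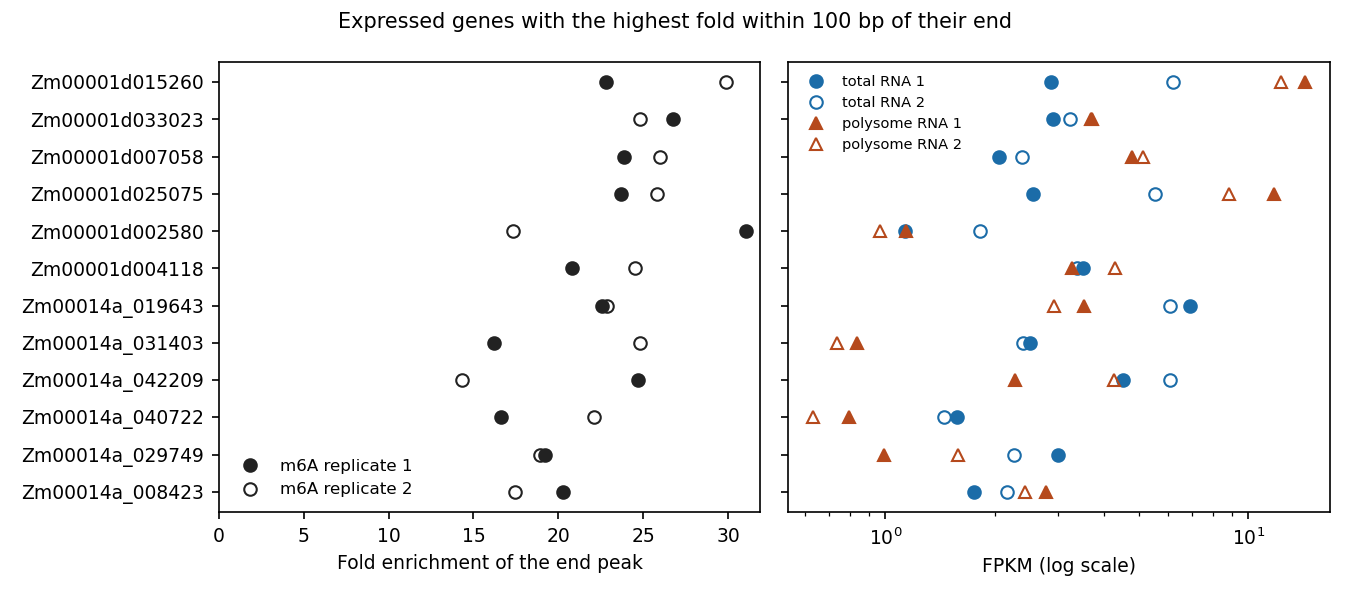
Left, fold enrichment of the end peak in each m6A list (x axis) and right, FPKM in each total RNA and polysome library on a log axis, for the 6 B73 genes (top) and 6 Mo17 genes (bottom) with the highest mean fold among expressed end genes; filled and open marks are replicates 1 and 2. Folds of Zm00001d002580 and Zm00014a_042209 differ most between lists, at 31.1 and 17.3 and at 24.7 and 14.3.

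Most of the most abundant end genes had weak peaks among those called. In B73 the 4 highest in total RNA were Zm00001d015204, Zm00001d008529, Zm00001d048593 and Zm00001d006520, with mean FPKM of 397.9, 359.5, 340.1 and 261.4. Their mean folds were 2.69, 3.43, 2.11 and 2.96. In Mo17 they were Zm00014a_040142, Zm00014a_040005, Zm00014a_030628 and Zm00014a_005106, with mean FPKM of 486.5, 315.2, 212.5 and 194.8 and mean folds of 3.08, 3.05, 3.55 and 7.61. Each of these mean folds lay below the median of end genes in its line, the last of them by the least. By terciles of mean fold, the median RNA FPKM of B73 end genes was 14.0 in both libraries in the lowest tercile and 3.35 and 3.46 in the highest. In Mo17 it was 16.8 and 17.0 in the lowest and 6.80 and 6.07 in the highest.

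RNA levels of end and inner genes differed in opposite directions in the lines. The median RNA FPKM of end genes was 5.12 and 5.24 in B73, with quartiles of 2.23 and 12.9 in replicate 1, and that of inner genes was 4.82 and 4.95. In Mo17 it was 8.47 and 7.43 for end genes and 10.5 and 9.75 for inner genes. On the log2(FPKM + 1) scale the difference of the medians was 0.070 ± 0.0034 in B73 and −0.32 ± 0.048 in Mo17 (SD, n = 2 libraries). In each line it exceeded the replicate spread, but both libraries were read on the same genes, so that spread leaves out the choice of genes. Over the 4 libraries the mean was −0.12 (exact two-sided sign-flip permutation p = 0.5, with 2 of 4 above 0). Within 4 bins of gene span the B73 difference turned to −0.043 and the mean over the 4 libraries was −0.17, lower for end genes in 4 of 4 libraries (exact p = 0.125, the smallest possible). When genes under an FPKM of 5 were left out the mean turned to 0.048. Each RNA library reached an FPKM of 1 for 86.9% of end and 88.2% of inner genes in B73, and for 93.6% and 95.4% in Mo17. The RNA of 20 B73 and 9 Mo17 end genes was listed at 0 in both libraries.

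In polysomes, end genes differed little from inner genes. Ratios are differences of log2(FPKM + 1) between polysome and total RNA, and a gene entered if 2 or more of the line's 4 libraries reached an FPKM of 1. This kept 1709 of the 1841 B73 end genes and 488 of the 512 Mo17 end genes. The median ratio of end genes was 0.46 and 0.25 for replicate numbers 1 and 2 in B73, and that of inner genes was 0.44 and 0.19. In Mo17 it was −0.48 and −0.33 for end and −0.39 and −0.30 for inner genes. The difference was 0.038 ± 0.027 in B73 and −0.065 ± 0.045 in Mo17 (SD, n = 2 replicate numbers). Over the 4 number pairs the mean was −0.014 (exact two-sided sign-flip permutation p = 0.75, with 2 of 4 above 0). Within 4 bins of gene span it was −0.051, below 0 in 4 of 4 pairs (exact p = 0.125, the smallest possible), and the B73 difference turned to −0.036. These ratios set polysome and RNA libraries of the same number side by side, though nothing shows that the numbers pair the samples.

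Tested gene by gene, 333 of the 1709 B73 end genes (19.5%) were higher in polysome than in total RNA and 33 (1.93%) were lower. Of all 19342 genes tested in B73, 16.6% were higher and 5.36% were lower. A gene was called at an adjusted p under 0.05 in limma (Benjamini-Hochberg over all tested genes of the line) and a log2 ratio of 1 or more in size. Among the 5157 inner genes, 19.0% were higher and 2.39% lower, close to the end genes. In Mo17, 20 of 488 end genes (4.10%) were higher and 83 (17.0%) lower, where 5.07% and 16.6% of all 20208 tested genes were. Inner genes of Mo17 had 5.97% higher and 14.7% lower. The median limma ratio of end genes was 0.34 in B73, beside 0.29 over all tested genes, and −0.42 in Mo17, beside −0.36. The split follows the scaling of the libraries. With an equal FPKM sum over Zm gene models, 66 B73 end genes (3.84%) were higher and 178 (10.4%) lower, beside 3.43% and 13.0% of all genes tested. In Mo17 13 end genes (2.66%) were then higher and 134 (27.5%) lower, beside 2.42% and 25.9% of all. Scaled by the median of log ratios, 195 B73 end genes (11.4%) were higher and 66 (3.84%) lower, beside 9.01% and 7.61% of all. In Mo17 48 end genes (9.88%) were higher and 25 (5.14%) lower under it, beside 12.8% and 6.32% of all. These scalings moved the median of all tested genes to −0.21 and 0.06 in B73 and to −0.57 and 0.03 in Mo17.

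**Figure D5:**
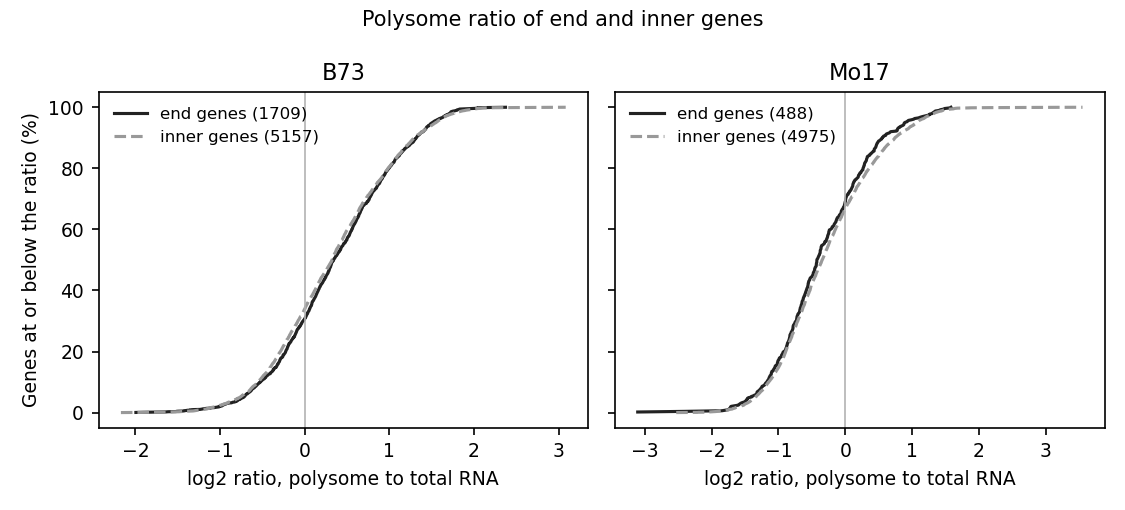
Percent of genes at or below each limma log2 ratio of polysome to total RNA (y axis against x axis), for end genes (solid, 1709 in B73 and 488 in Mo17) and inner genes (dashed, 5157 and 4975). The curves of both kinds lie close together in each line, with medians of 0.34 and 0.32 in B73 and of −0.42 and −0.35 in Mo17.

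Median polysome ratios were lower in end genes with further peaks than in those whose end peak was the only one, a difference that was not tested. In B73 the 281 genes with further peaks had median ratios of 0.34 and 0.15, against 0.49 and 0.27 for the 1560 with the end peak alone. Of those tested, 35 of 270 (13.0%) and 298 of 1439 (20.7%) were called higher, and 7 (2.59%) and 26 (1.81%) lower, beside 16.6% and 5.36% of all B73 genes. In Mo17 the 94 genes with further peaks had −0.64 and −0.48, against −0.41 and −0.29 for the other 418. There 0 of 92 and 20 of 396 (5.05%) were called higher, and 21 (22.8%) and 62 (15.7%) lower, beside 5.07% and 16.6% of all Mo17 genes. The groups also differed in span, with median lengths of 7973 and 4505 bp for B73, and of 11423.5 and 5163 bp for Mo17. The part of span in this difference was not tested.

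The extremes among end genes were few and are named by the size of their ratio. In B73, Zm00001d016159 (chromosome 5, 147676757 to 147678890, minus strand) had RNA FPKM of 1.39 and 0 and polysome FPKM of 6.97 and 7.03. On the log2 scale the ratio was 2.37 ± 0.40 (SE), with a limma adjusted p of 0.00513, at an RNA level near the filter. Zm00001d030627 (chromosome 1, 149688164 to 149696743, plus strand) rose from 1.42 and 0.535 to 5.93 and 10.8. The ratio on the log2 scale was 2.23 ± 0.34 (SE), with a limma adjusted p of 0.00374. Its end peak was strong, with folds of 14.2 and 20.5, while that of Zm00001d016159 had folds of 7.16 and 5.65. With no filter on FPKM neither passed (limma adjusted p = 0.169 and 0.137). Next by size were Zm00001d033535 and Zm00001d032019, with log2 ratios of 2.10 and 2.05 and mean folds of 7.05 and 6.65. With no filter on FPKM, the first of them passed and the second did not (limma adjusted p = 0.0312 and 0.0680).

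On the other side, Zm00001d049979 (chromosome 4, 56765844 to 56767670, plus strand) fell from RNA FPKM of 7.33 and 6.88 to 1.46 and 0.676 in polysomes. On the log2 scale the ratio was −2.00 ± 0.25 (SE), with a limma adjusted p of 0.00195. Zm00001d013809 (chromosome 5, 21121347 to 21127522, plus strand) fell from 45.7 and 65.5 to 15.0 and 13.1. The ratio on the log2 scale was −1.89 ± 0.21 (SE), with a limma adjusted p of 0.00142. Their peaks were weak, with mean folds of 4.21 and 3.07. With no filter on FPKM neither passed (limma adjusted p = 0.0803 and 0.0754). Next by size were Zm00001d020852 and Zm00001d025887, with log2 ratios of −1.72 and −1.64 and mean folds of 9.46 and 4.22. With no filter on FPKM, both of them passed (limma adjusted p = 0.0327 and 0.0304).

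In Mo17, Zm00014a_013239 (chromosome 2, 158045302 to 158047237, plus strand) rose from RNA FPKM of 3.36 and 5.02 to 15.6 and 13.2. The ratio on the log2 scale was 1.58 ± 0.20 (SE), with a limma adjusted p of 0.00212, and of 0.0533 with no filter on FPKM. Zm00014a_000702 (chromosome 7, 171079429 to 171081301, plus strand) rose from 2.40 and 3.29 to 10.6 and 10.04. The ratio on the log2 scale was 1.57 ± 0.18 (SE), with a limma adjusted p of 0.00149. Both had strong end peaks, with mean folds of 12.7 and 15.5. The next 2 called higher, Zm00014a_037383 and Zm00014a_038370, had mean folds of 11.9 and 2.65. Zm00014a_008761 (chromosome 8, 8781218 to 8783223, minus strand) fell from 9.38 and 7.90 and was listed at 0 and 0.247 in polysome RNA, with both summits 13 bp from the gene end. Zm00014a_033831 (chromosome 10, 20058882 to 20075660, minus strand) fell from 18.6 and 18.4 to 2.62 and 2.72. The ratio on the log2 scale was −2.41 ± 0.14 (SE), with a limma adjusted p of 0.000656. The end peaks of these 2 lower genes had mean folds of 7.14 and 11.0. Those of the next 2 called lower, Zm00014a_008207 and Zm00014a_020223, had 7.34 and 10.6. In the highest and lowest terciles of fold, 17.9% and 21.1% of B73 end genes were called higher, and 0.703% and 3.08% lower. Of all B73 genes tested, 16.6% were higher and 5.36% lower. For Mo17 the terciles had 5.39% and 4.82% higher and 18.0% and 16.3% lower, beside 5.07% and 16.6% of all. A link of fold with the ratio was not tested.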

How the data were processed

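m6A-seq, RNA-seq and polysome profiling samples were grouped by the labels. The submitters' processing notes name Trimmomatic 0.35, HISAT2, MACS2 and the build B73 RefGen_v4; the Mo17 build, the annotation, the control of the enrichment and the strand setting are absent from the sources used here. For each m6A sample the authors deposited 1 peak list, with a fold enrichment (a ratio), −log10 p, −log10 q and an integer score. For each other sample the authors deposited FPKM values with the span and strand of the gene, which carry no depth. Genes listed in only some tables of a line, or with differing spans, were left out (1 in B73, 2 in Mo17).

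Positions were counted from 1. Peaks and lists are described by medians. Differences within a list or library were tested over the 4 lists or libraries by an exact sign-flip permutation test (scipy 1.17.1). The lists of a line share most end peaks and its libraries were read on the same genes, so none of these tests had 4 independent values. Polysome libraries were set against RNA libraries in limma 3.58.1 under R 4.3.3, with a mean trend and 2 residual degrees of freedom, on log2(FPKM + 1) over all tested genes of a line. The fit was tested on simulated data with normal noise of the fit's own spread. Of the genes changed by a log2 ratio of 1.5 or 3, 97% to 100% were recovered, with 28 false calls in B73 and 15 in Mo17. The changed genes all had a mean log2(FPKM + 1) above 2, so the check does not cover genes near the filter. The check changed 100 genes at each ratio and held no shift between libraries, so it does not cover the scaling either. Genes were named by rank, as the 6 of highest fold and the 4 of highest RNA level in a line. The 4 of largest ratio called in each direction were also named. Of these 4, the first 2 are described at more length. The members and groups were chosen with earlier results of these data known. Alternatives were other distance limits, peak thresholds, spans, filters, pseudocounts and scalings, a replicate block and each replicate left out. No sequence is shown, because no genome of these builds was used here.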

Additional observations from a re-analysis of the deposited data

Results flagged for a closer look

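The difference in RNA level between end and inner genes had one direction in both B73 libraries and the other in both Mo17 libraries, with mean differences of the median log2(FPKM + 1) of 0.070 in B73 and −0.32 in Mo17. Whether the lines differ in it was not tested. The B73 value turned to −0.014 with gene spans of at least 4000 bp and to −0.043 within 4 bins of gene span. The difference in polysome ratio likewise was above 0 for both replicate numbers of B73, with a mean of 0.038, and below 0 for both of Mo17, with a mean of −0.065. It was not tested between the lines either, and the B73 value turned to −0.036 within 4 bins of gene span.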

How the results depend on the processing

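The fold, the width and the replicate overlap of end against inner peaks kept the direction of their mean over the lists under each alternative run. Single lists did not always keep it. With the limit at 50 bp, end peaks had the higher fold in 3 of 4 lists. Their overlap was higher in 2 of 4 lists with a −log10 q of at least 10. It was higher in 1 of 4 with the limit at 150 bp, at least 5-fold, spans of at least 4000 bp or a summit within 50 bp. For B73 alone the overlap turned, to 0.380 points with a −log10 q of at least 10 and to 0.437 with a summit within 50 bp. The cause was not tested. The RNA level difference over the 4 libraries turned to 0.048 with an FPKM of at least 5. Leaving out 1 RNA replicate gave −0.19 to −0.048, the latter without Mo17 RNA replicate 2. In B73 it turned to −0.014 with spans of at least 4000 bp and −0.043 within bins of span. The polysome ratio difference, −0.014, turned to 0.0063 with the limit at 50 bp and 0.015 at 150 bp. Leaving out 1 replicate gave −0.025 to 0.0048, the latter without Mo17 polysome replicate 1. In B73 it turned to −0.036 within bins of span and to −0.044 within bins of RNA level and span together, an alternative chosen after seeing the data.

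The number of end peaks (2518 in B73 and 736.5 in Mo17, means of 2 lists) was 506 and 130.5 with the limit at 50 bp and 4572 and 1870.5 at 150 bp. It was 1618 in B73 with spans of at least 4000 bp and 488.5 in Mo17 with a −log10 q of at least 10. The polysome calls in B73 were 65 higher and 7 lower of 265 tested end genes at 50 bp, and 670 and 79 of 3383 at 150 bp. They were 142 higher of 1067 with spans of at least 4000 bp and 67 lower of 1709 with a pseudocount of 0.1. With no filter they were 88 and 7 of 1841, and with the adjusted p alone 580 and 116 of 1709. With the median of log ratios they were 195 and 66 of 1717, and with the sums over Zm gene models made equal 66 and 178 of 1719. In Mo17 they were 2 and 16 of 72 at 50 bp and 61 and 234 of 1384 at 150 bp. There 13 of 512 were higher with no filter and 3 of 360 with spans of at least 4000 bp. With the median of log ratios the Mo17 calls were 48 and 25 of 486. With equal sums they were 13 and 134 of 488, and with the adjusted p alone 66 and 211 of 488. Changed limits change the members, so those counts are not of the same genes. Limits and spans leave the fit as it was, with 16.6% of all tested B73 genes higher and 5.36% lower. In Mo17 that fit had 5.07% and 16.6%. Shares of all genes under the 2 other scalings stand in the results above. None is given for no filter, a pseudocount of 0.1 or the adjusted p alone, so those counts cannot be set against all genes.

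The labels do not say that a number marks shared plants, so the numbers were not used as a block in the gene-by-gene fit. Same-numbered RNA and polysome samples deviated with a correlation of −0.135 in B73 and −0.0349 in Mo17. The polysome ratios per replicate number do combine same-numbered libraries. With a replicate block the calls were 339 higher and 34 lower of 1709 end genes in B73 and 20 and 83 of 488 in Mo17. With the crossed block, chosen after seeing the data, they were 338 and 34, and 20 and 83. No share of all tested genes is given under either block, so these counts are not set against all genes. The RNA level used no filter on FPKM, so no setting without one was run for it. Depth is unknown, so no counting error could be given.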
